A study of Drosophila melanogaster with 35 samples.

Results

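Binding of chromatin proteins was followed at 10 genes of the JNK and AP-1 pathway in Drosophila Kc167 cells, a line of embryonic origin. The genes are egr, slpr, hep, bsk, Jra, puc, Ets21C, Gadd45, scaf and cher. They were taken by name from the probe-to-gene table, with every probe that names 1 of them alone, which gave 13 of 9993 probes and 10 of 7736 named genes. The genes bsk, Gadd45 and hep have 2 probes each and the other 7 genes have 1. A further probe, which names both cher and cal1, was kept apart. All 13 probes passed the filter on missing values. In the gene order of the Release 6 assembly, slpr and hep lie on X, bsk and Ets21C on 2L, egr, Jra, Gadd45 and scaf on 2R, and puc and cher on 3R.

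JNK signalling is a stress-activated chain of kinases. In flies the TNF-like ligand Eiger (egr) acts through receptors and adaptors on the mixed-lineage kinase Slipper (slpr), which activates the JNK kinase Hemipterous (hep) and then the JNK Basket (bsk). Basket acts on AP-1, a dimer of Jun (the product of Jra) and Fos (the product of kay), and AP-1 switches on target genes such as puc, whose phosphatase product turns Basket off again. The pathway is known for dorsal closure of the embryo, wound healing and stress-induced cell death.

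The data come from DamID, in which a chromatin protein carries the Dam methyltransferase of bacteria, so that adenines near its binding sites become methylated. Methylated DNA from cells with the fusion was compared on a 2-colour cDNA array with that from cells carrying Dam alone, and a probe's value is their log ratio, the fusion over Dam. Each array was centred on its median, so 0 stands for the median probe of that array, not for equal methylation. Values above 0 mean a higher ratio of fusion over Dam than at the median probe, and values below 0 mean a lower one. Every call above or below 0 is therefore relative to the median probe. The logarithm was taken as base 2, which no label states, so the sizes depend on that reading. Untreated cells were profiled with fusions of 6 heterochromatin proteins, with 4 arrays each for HP1, HP3, HP4 and HP5 and 3 each for Su(var)3-9 and HP6. The transcription factor Jra, on 3 arrays, was the study's control for a factor that is not part of heterochromatin. Cells with HP1 knocked down carried the HP3 fusion on 3 arrays and the HP6 fusion on 2, and cells with the control gene white knocked down did so on 3 and 2. The fusions were made from transfected plasmids that carry the full-length protein with Dam and a Myc tag, so each profile is that of an added fusion protein beside the cell's own copy. Whether replicates are separate cultures is not stated in the labels, so the p-values reflect the spread between these arrays and no more, and the number of arrays limits the precision.

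The probe of a fusion's own gene also reads the plasmid, which checks the labels. The Jra probe lay between 4.46 and 4.84 on the 3 Jra arrays and at or below 0.20 on the other 32, so it is left out on Jra arrays. The probe of Lhr, the gene of HP3, reached 6.19 on HP3 arrays but was at 0.09 on the array labelled HP3 replicate 2, which correlated with the others of its group at only 0.0292 to 0.0770. The array labelled HP6 replicate 3 carried 4.81 at the HP4 gene, against 3.71 to 5.01 on the HP4 arrays themselves. Its correlation with the others of its group was 0.479 to 0.589. Both arrays are kept under their labels, and results that rest on them are also given without them. The array labelled HP4 replicate 2 had the widest spread of all, with a median absolute deviation of 1.09, and correlated with its group at 0.40 to 0.42. The genes of Su(var)3-9, HP6 and white were not analysed here, and a DamID probe does not measure how far HP1 was knocked down.

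Across the 10 genes, Jra was high at puc and Ets21C alone, and Su(var)3-9, HP4 and HP5 were low at the same genes and at Gadd45 and bsk. HP1 and HP4 were high at slpr and at no other member. HP3 was higher at bsk after knock-down of HP1 than after knock-down of white. The limma model tested each protein against 0, and a probe was called at an adjusted p under 0.05 over 9934 probes.

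For Jra 2 of 12 member probes were called above 0 and none below, where 10.8% of all probes were called above and 6.3% below. For Su(var)3-9 6 of 13 probes, of 4 genes, were called below 0, where 17.4% of all probes were, and none above, where 15.8% were. For HP5 the same 6 probes were called below 0, where 18.7% of all probes were, and none above, where 18.4% were. For HP4 9 probes of 7 genes were called below 0, where 21.8% of all probes were, and 1 above, where 19.7% were. With only the HP4 arrays in the model, 2 of these 10 remained called, puc and bsk HL02677, where 7.08% of all probes were. For HP1 1 probe was called above 0, where 8.48% of all probes were, and none below, where 2.95% were. For HP3 and HP6 no member probe was called by limma, where 6.68% and 10.4% of all probes were called in either direction, and 4 and 1 member probes had an unadjusted p under 0.05. The median fitted value of the member probes was -0.43 for Su(var)3-9, -0.72 for HP4 and -0.38 for HP5, against -0.00, -0.03 and 0.00 over all probes.

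**Figure D1:**
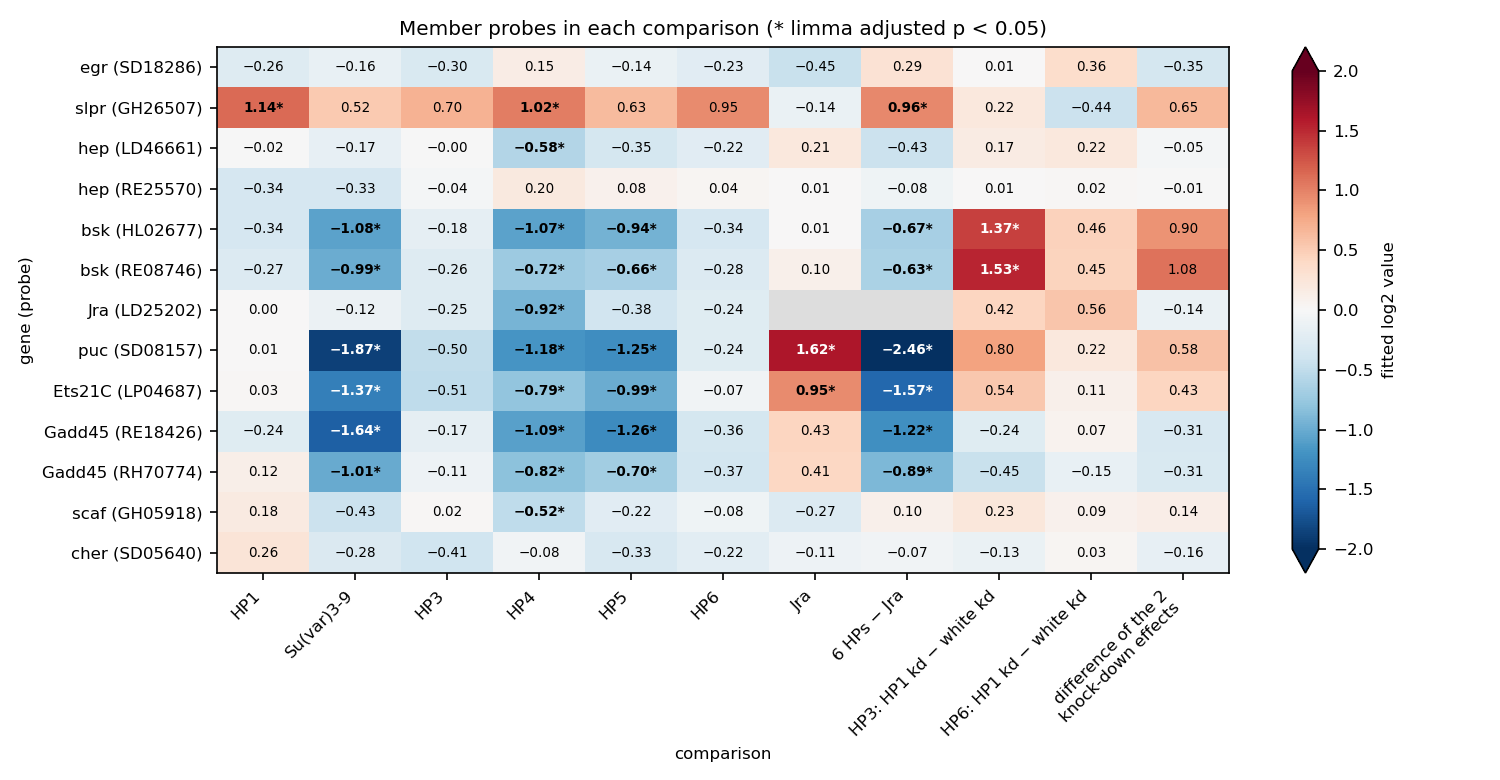
Fitted log2 ratio of Dam-fusion over Dam (colour) for each member probe (rows) in each comparison (columns), with called values marked. The puc and Ets21C rows are high for Jra and low for Su(var)3-9, HP4 and HP5, slpr is high for HP1 and HP4, and both bsk probes are high in the HP3 knock-down column.

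Among the target genes, puc was the member with the highest Jra value. Its probe read 1.42, 1.84 and 1.70 on the Jra arrays. The fitted Jra value of puc was 1.62 ± 0.24 (SE, limma adjusted p = 2.07e-05), which ranked 34 from the top of 9934 probes. On untreated arrays of the 6 heterochromatin proteins, puc ranged over 22 arrays between -2.18 and 0.73 with a median of -0.83. None of these arrays reached the lowest Jra array, and 19 of the 22 were below 0.

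The low puc values were those of Su(var)3-9, HP4 and HP5. The puc probe read -2.18, -1.65 and -1.71 on the Su(var)3-9 arrays, -0.65, -1.34, -1.59 and -1.14 on the HP4 arrays, and -1.03, -1.60, -1.39 and -0.97 on the HP5 arrays. All 11 of these arrays were below 0, and the Su(var)3-9 arrays were all lower than every HP5 array. The fitted values of puc were -1.87 ± 0.24 for Su(var)3-9 (limma adjusted p = 9.47e-07), -1.18 ± 0.21 for HP4 (adjusted p = 5.15e-05) and -1.25 ± 0.21 for HP5 (adjusted p = 3.19e-05). HP1 was spread around 0 at puc, with 0.51, -0.65, 0.21 and -0.05. HP3 was below 0 on all 4 arrays, at -0.60, -0.68, -0.17 and -0.54, with an adjusted p of 0.147. On the HP6 arrays puc read 0.73, -0.02 and -1.36. The value below -1 is that of the array labelled HP6 replicate 3, which carries the high HP4 probe. Without both doubted arrays, HP6 was fitted at 0.33 (adjusted p = 0.556) and HP3 at -0.43 (adjusted p = 0.185).

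Ets21C, which encodes an ETS-domain transcription factor induced by stress signalling, had the same order of groups at a smaller scale. Its probe read 0.97, 1.21 and 0.84 on the Jra arrays, with a fitted value of 0.95 ± 0.21 (SE, limma adjusted p = 0.00155) and rank 418 from the top. On the Su(var)3-9 arrays it read -1.17, -1.18 and -1.60, on the HP4 arrays -0.64, -0.15, -1.37 and -1.01, and on the HP5 arrays -1.45, -0.58, -1.02 and -0.90. Every one of these 11 arrays was below 0 and every Jra array above, as for puc. The fitted values were -1.37 for Su(var)3-9 (adjusted p = 1.01e-05), -0.79 for HP4 (adjusted p = 0.000844) and -0.99 for HP5 (adjusted p = 9.36e-05). HP3 read -0.94, -0.02, -0.38 and -0.68 at Ets21C, and its fitted value of -0.51 missed the threshold (adjusted p = 0.0833). Without the 2 doubted arrays it was -0.63 and passed (adjusted p = 0.0293), where 9.1% of all probes were then called for HP3. Scaling every array to the same spread also brought Ets21C (adjusted p = 0.011), puc (adjusted p = 0.0385) and cher (adjusted p = 0.0195) past the threshold for HP3, all below 0. That is 3 of 13 member probes, where 20.7% of all probes were called for HP3 under this scaling.

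The joint pattern of puc and Ets21C, with Jra above 0 and Su(var)3-9, HP4 and HP5 all below, was met by 270 of the 9934 probes, which is 2.72%, and by no other member probe. Over the 11 group means, puc correlated most with sau (Pearson r = 0.996), spoon (0.992) and Sfxn1-3 (0.991), and Ets21C with sau (0.992), puc (0.990) and wts (0.984). These are descriptions over 11 groups that share arrays and spread with every probe on the array. Without the 2 doubted arrays, r between puc and Ets21C was 0.983.

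**Figure D2:**
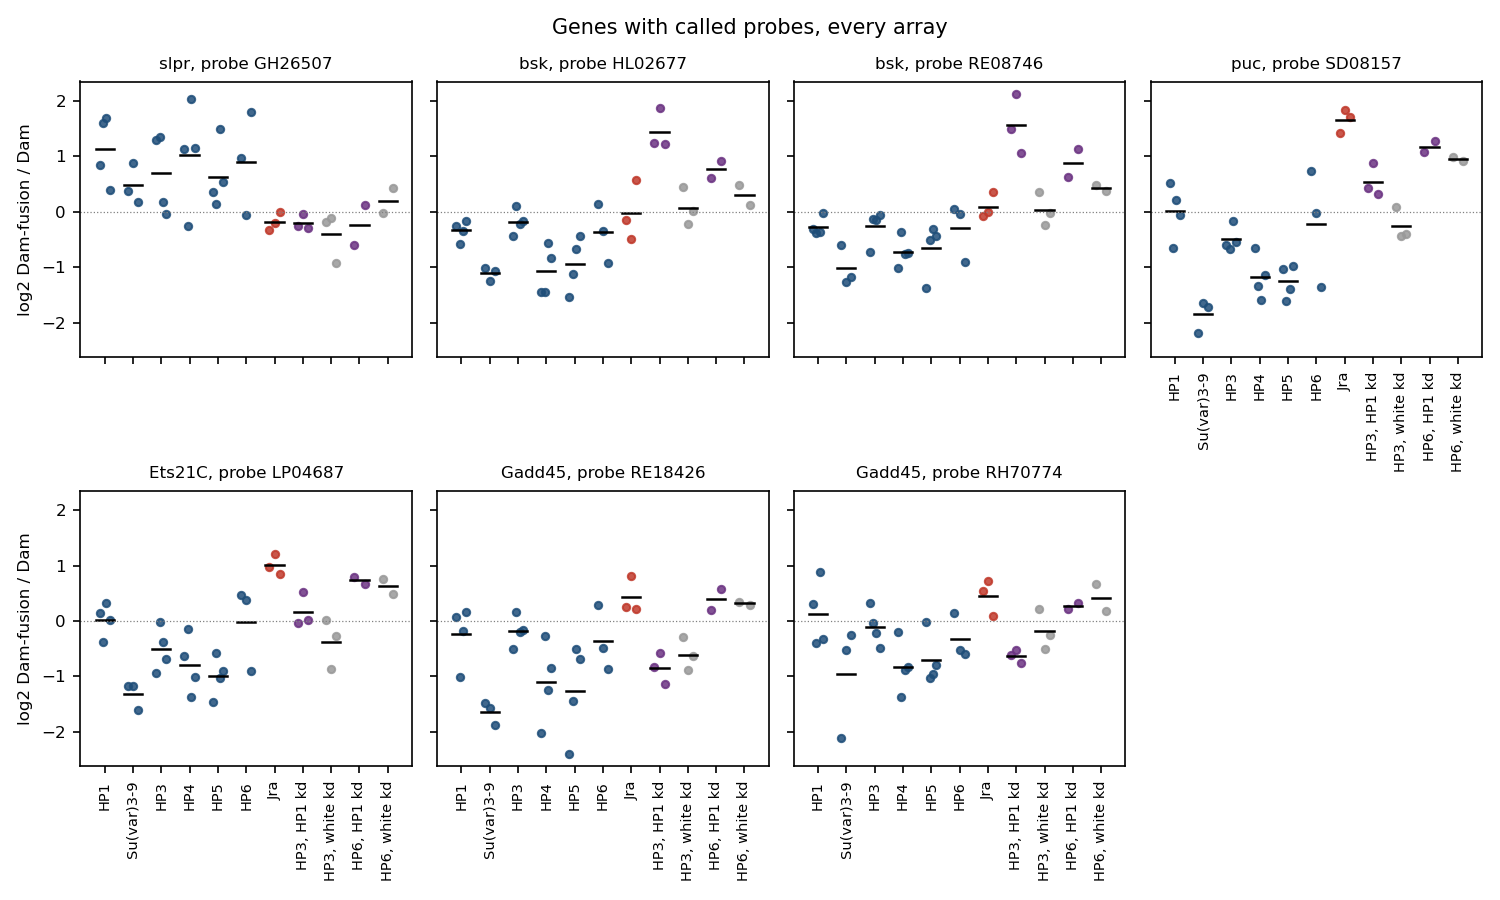
Log2 ratio of Dam-fusion over Dam on every array, by group, in 1 panel a probe, with points for arrays (heterochromatin proteins blue, Jra red, HP1 knock-down purple, white knock-down grey) and a line for the group mean. The 3 Jra arrays lie above 1.4 at puc, while the Su(var)3-9, HP4 and HP5 arrays all lie below 0 there.

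Gadd45, a small stress-response gene, was low for the same 3 heterochromatin proteins without a call for Jra. The RE18426 probe of Gadd45 read -1.48, -1.58 and -1.88 on the Su(var)3-9 arrays, -2.01, -0.27, -1.24 and -0.84 on the HP4 arrays, and -2.39, -1.45, -0.50 and -0.69 on the HP5 arrays. All of these values were below 0, and the HP4 and HP5 arrays differed among themselves by more than 1.5. The fitted values were -1.64 (limma adjusted p = 7.04e-05), -1.09 (adjusted p = 0.000812) and -1.26 (adjusted p = 0.000222). On the Jra arrays the probe read 0.25, 0.81 and 0.22, which gave 0.43 ± 0.28 (SE, adjusted p = 0.33). With only the Jra arrays in the model, both Gadd45 probes were called above 0 for Jra (0.38 and 0.36, adjusted p = 0.00963 and 0.0123), where 44.8% of all probes were called in either direction. The second Gadd45 probe, RH70774, followed the first over the group means (r = 0.966) with weaker calls. Its Su(var)3-9 arrays read -2.11, -0.52 and -0.26, so that the fitted value of -1.01 (adjusted p = 0.00377) was -0.39 (adjusted p = 0.292) without replicate 1. For HP4 the RH70774 value of -0.82 (adjusted p = 0.00423) was -0.59 (adjusted p = 0.0689) without replicate 2. For HP5 the RH70774 value of -0.70 (adjusted p = 0.0152) was -0.54 (adjusted p = 0.12) without replicate 2 and -0.66 (adjusted p = 0.0586) without replicate 3.

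The remaining target genes lay closer to 0. The probe of scaf, which encodes a serine-protease-like protein of closing epithelia, ranged between -1.40 and 0.50 over the 22 heterochromatin protein arrays, with a median of -0.10. It was called only for HP4, at -0.52 (limma adjusted p = 0.0119), where the arrays read -0.27, -1.40, -0.37 and -0.02. Without HP4 replicate 2 that value was -0.23 (adjusted p = 0.253). On the Jra arrays scaf read -0.32, -0.30 and -0.27, all below 0, with a fitted value of -0.27 (adjusted p = 0.359). The probe of cher, the gene of the actin crosslinker filamin, stayed between -0.64 and 0.52 on all 35 arrays and was not called for any protein. It came nearest to the threshold for HP5, at -0.33 (adjusted p = 0.0614), and next for HP3, at -0.41 (adjusted p = 0.072). Without HP3 replicate 3 the HP3 value of cher passed at -0.54 (adjusted p = 0.0405), with the doubted HP3 replicate 2 still included. Without the 2 doubted arrays it was -0.32 (adjusted p = 0.206). The probe shared by cher and cal1 was not called either, and read 2.42 on the array labelled HP3 replicate 2, against -1.07 to -0.44 on the other HP3 arrays.

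At the start of the chain, the ligand gene egr was not called for any protein. Its 34 measured arrays lay between -0.92 and 1.16 with a median of -0.31, and 26 of them were below 0. One Su(var)3-9 array has no value for egr, so that group rests there on 2 arrays. With only the Jra arrays in the model, egr was called below 0 for Jra (-0.29, adjusted p = 0.0477), where 44.8% of all probes were called in either direction.

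The kinase gene slpr stood apart from the other members in being high for heterochromatin proteins. Its probe read 0.85, 1.61, 1.70 and 0.39 on the HP1 arrays, and 1.13, -0.25, 2.03 and 1.16 on the HP4 arrays. The HP1 arrays were all above 0, while HP4 had 1 array below. The fitted values of slpr were 1.14 ± 0.28 for HP1 (SE, limma adjusted p = 0.00525) and 1.02 ± 0.28 for HP4 (adjusted p = 0.00514). The HP1 value was 1.02 (adjusted p = 0.0627) without replicate 2 and 0.90 (adjusted p = 0.0794) without replicate 3, and the HP4 value was 0.71 (adjusted p = 0.076) without replicate 3. Su(var)3-9 read 0.37, 0.87 and 0.18 at slpr, HP5 0.36, 0.14, 1.49 and 0.54, and HP3 1.29, 1.35, 0.17 and -0.04, none of which was called. The HP3 value of 1.35 is that of the doubted array labelled HP3 replicate 2. HP3 was fitted at 0.70 (adjusted p = 0.139) with all arrays and at 0.44 (adjusted p = 0.426) without the 2 doubted arrays. With only the HP5 arrays in the model, slpr was called for HP5 (0.63, adjusted p = 0.0373), where 38.5% of all probes were called in either direction. The HP6 arrays read 0.97, -0.06 and 1.79, fitted at 0.95 (adjusted p = 0.0636). The highest is the array labelled HP6 replicate 3, and without the 2 doubted arrays the HP6 value was 0.57 (adjusted p = 0.498), whereas without HP6 replicate 2 it was 1.38 (adjusted p = 0.0226) and with only the HP6 arrays in the model 1.12 (adjusted p = 2.85e-06), where 16.5% of all probes were called. Over the 22 arrays, with the 2 doubted ones among them, 19 were above 0, with a median of 0.86. The Jra arrays read -0.33, -0.20 and -0.01. The group means after knock-down were lower than those of the 6 untreated heterochromatin proteins, at -0.19 for HP3 after HP1 knock-down, -0.41 for HP3 after white knock-down, -0.23 for HP6 after HP1 knock-down and 0.20 for HP6 after white knock-down, but single arrays overlapped, with 0.43 on HP6 after white knock-down replicate 2. Untreated and knock-down arrays were not tested against each other.

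The probes of hep, the JNK kinase gene, did not move together. Over the 11 group means they correlated at r = -0.337, while the pair of bsk reached 0.988 and that of Gadd45 0.966. The LD46661 probe of hep was called below 0 for HP4 at -0.58 (limma adjusted p = 0.0023), with arrays at -0.33, -0.94, -0.92 and -0.13, while the RE25570_ReAmp probe read 0.70, 0.43, -0.30 and -0.04 there, fitted at 0.20 (adjusted p = 0.404). With both probes averaged, hep was at -0.19 (adjusted p = 0.252). The second hep probe also varied on the Jra arrays, which read 0.60, 0.70 and -1.03. No call on hep therefore holds for both of its probes.

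Both probes of bsk, the JNK gene itself, were low for Su(var)3-9, HP4 and HP5. The HL02677 probe read -1.02, -1.24 and -1.07 on the Su(var)3-9 arrays, -1.45, -1.45, -0.56 and -0.83 on the HP4 arrays, and -1.54, -1.13, -0.68 and -0.43 on the HP5 arrays. The fitted values were -1.08 (limma adjusted p = 0.00027), -1.07 (adjusted p = 3.18e-05) and -0.94 (adjusted p = 0.000188). The RE08746 probe gave -0.99 (adjusted p = 0.000596), -0.72 (adjusted p = 0.00211) and -0.66 (adjusted p = 0.00512). Of these 6 calls, only that of RE08746 for HP5 was lost when 1 array was left out, at -0.43 (adjusted p = 0.105) without HP5 replicate 1. The Jra arrays lay around 0 at bsk, with -0.15, -0.50 and 0.58 at HL02677 and -0.09, -0.01 and 0.35 at RE08746.

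The Jra gene, read on arrays of the other fusions only, was called for HP4 alone, at -0.92 (limma adjusted p = 0.00918). That value rests on HP4 replicate 2, since the HP4 arrays read -0.16, -3.41, -0.12 and 0.00, and without this array the value was -0.09 (adjusted p = 0.586). For HP5 the 4 arrays lay together, at -0.41, -0.37, -0.34 and -0.42, with a fitted value of -0.38 that was not called (adjusted p = 0.286). With only the HP5 arrays in the model it was called (adjusted p = 0.0375), where 38.5% of all probes were.

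A direct contrast of the mean of the 6 heterochromatin proteins with Jra asked which genes separate the kinds of protein. Of 12 member probes, 6 were lower with the heterochromatin proteins, where 19.1% of all probes were, and 1 was higher, where 16.9% were. The lower ones were puc, Ets21C and both probes of Gadd45 and bsk. The puc difference was -2.46 ± 0.25 (SE, limma adjusted p = 1.9e-08), rank 11 from the bottom of all probes, and that of Ets21C was -1.57 ± 0.22 (adjusted p = 2.11e-06). Neither was lost with any array left out. The Gadd45 probes differed by -1.22 (adjusted p = 0.00222) at RE18426 and -0.89 (adjusted p = 0.0124) at RH70774. The bsk probes differed by -0.67 (adjusted p = 0.0198) at HL02677 and -0.63 (adjusted p = 0.0259) at RE08746, and slpr by 0.96 (adjusted p = 0.032). Calls near the threshold depended on the 3 Jra arrays. The slpr call was lost without any 1 of them (0.93, 0.99 and 0.96, adjusted p = 0.116, 0.0944 and 0.0967 without replicates 1, 2 and 3). So was that of bsk RE08746 (-0.70, -0.66 and -0.53, adjusted p = 0.0607, 0.0781 and 0.146). That of bsk HL02677 was lost without Jra replicate 1 (-0.70, adjusted p = 0.0633) and replicate 3 (-0.41, adjusted p = 0.253). That of Gadd45 RH70774 was lost without replicate 1 (-0.89, adjusted p = 0.0561) and replicate 2 (-0.80, adjusted p = 0.086). Without the 2 doubted arrays all 7 calls remained, with puc at -2.37 (adjusted p = 8.72e-10) and slpr at 0.86 (adjusted p = 0.042), and hep LD46661 joined them at -0.47 (adjusted p = 0.038), where 37.1% of all probes were called in either direction. This contrast shares its arrays with the tests against 0.

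The knock-down arrays compared HP3 and HP6 between cells with HP1 knocked down and cells with white knocked down. In untreated cells HP3 was not called at bsk, with fitted values of -0.18 at HL02677 (limma adjusted p = 0.609) and -0.26 at RE08746 (adjusted p = 0.42). At bsk, HP3 was higher after HP1 knock-down, at both probes and on every array. HL02677 read 1.23, 1.88 and 1.21 after HP1 knock-down, against 0.44, -0.22 and 0.01 after white knock-down. RE08746 read 1.50, 2.12 and 1.06 after HP1 knock-down, against 0.36, -0.23 and -0.03 after white knock-down. The groups do not overlap at either probe. The differences were 1.37 ± 0.29 (SE, limma adjusted p = 0.00309) and 1.53 ± 0.29 (adjusted p = 0.00102), ranks 234 and 135 from the top. These were 2 of 13 member probes called higher, where 7.43% of all probes were, and none was called lower, where 0.443% were. Without HP1 knock-down replicate 2 the HL02677 difference was 1.20 (adjusted p = 0.0554), while RE08746 stayed past the threshold with each array left out in turn.

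Other members were not called in the HP3 contrast. The puc probe read 0.43, 0.88 and 0.32 after HP1 knock-down, against 0.08, -0.44 and -0.41 after white knock-down. Its arrays do not overlap, but the difference of 0.80 ± 0.34 had an adjusted p of 0.174. With only the 6 arrays of this contrast in the model, the same difference passed (adjusted p = 0.0246), where 24% of all probes were called. Ets21C differed by 0.54 (adjusted p = 0.342), with -0.04, 0.52 and 0.02 after HP1 knock-down against 0.02, -0.86 and -0.27 after white knock-down. Both Gadd45 probes had negative differences, -0.24 (adjusted p = 0.813) and -0.45 (adjusted p = 0.587). The slpr probe differed by 0.22 (adjusted p = 0.864).

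For HP6 no member probe was called, where 0.0201% of all probes were, and none had an unadjusted p under 0.05. The bsk probes read 0.61 and 0.92 at HL02677 after HP1 knock-down, against 0.48 and 0.13 after white knock-down, and 0.62 and 1.13 at RE08746, against 0.48 and 0.37. All arrays after HP1 knock-down were the higher ones, by 0.46 ± 0.36 and 0.45 ± 0.36 (SE, limma adjusted p = 1 for both), with 2 arrays a group. HP6 stood above 0 at puc in both conditions, with 1.07 and 1.27 after HP1 knock-down and 0.99 and 0.91 after white knock-down. The difference between the HP3 and HP6 effects was 1.08 ± 0.46 at bsk RE08746 (unadjusted p = 0.0268, limma adjusted p = 0.85) and 0.90 ± 0.47 at HL02677 (unadjusted p = 0.0617, adjusted p = 1). No probe of the whole array was called in that test (0.0%), so an effect on HP3 beyond that on HP6 was not shown.

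Set in order of the group means, puc was highest for Jra (1.65 ± 0.21, SD, n = 3), then HP6 after HP1 knock-down (1.17 ± 0.14, n = 2), HP6 after white knock-down (0.95 ± 0.06, n = 2) and HP3 after HP1 knock-down (0.54 ± 0.29, n = 3). The arrays of neighbouring groups do not overlap among the leading 4. From there down to HP5 each group overlaps with the next, and Su(var)3-9 (-1.85 ± 0.29, n = 3) is separate at the low end. Ets21C had the same order of groups, but only Jra (1.01 ± 0.19, n = 3) is separate from the next group. Without the 2 doubted arrays, HP6 was at 0.36 at puc, below HP3 after HP1 knock-down, but at 0.43 at Ets21C, above it, so the orders then differed. At bsk the top was HP3 after HP1 knock-down, at 1.44 ± 0.38 for HL02677 and 1.56 ± 0.54 for RE08746 (SD, n = 3), and the low end was Su(var)3-9, at -1.11 ± 0.12 and -1.01 ± 0.37 (n = 3). For slpr every group overlaps with the next. At Gadd45 Jra led at both probes and Su(var)3-9 was last at both, but each overlapped with the group next to it.

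The nearest measured genes on either side of the members were read in the same way. Next to bsk on 2L, CG31717 was the next gene on one side and had HP3 arrays with a mean of 1.80 ± 0.21 after HP1 knock-down, against 0.63 ± 0.45 after white knock-down (SD, n = 3 each). Its difference of 1.17 only just passed (limma adjusted p = 0.0483), and was lost without any 1 of 5 of the 6 arrays, at 0.87 to 1.27 (adjusted p = 0.0609 to 0.306). The other genes measured around bsk, chico, me31B and Rsf1, were not called in that contrast. CG9667, beyond puc on 3R, and Spp, next to Ets21C on 2L, were called higher too, by 1.01 (adjusted p = 0.0255) and 1.04 (adjusted p = 0.0253). CG9667 lost its call without HP1 knock-down replicate 2 (0.81, adjusted p = 0.253), white knock-down replicate 1 (1.00, adjusted p = 0.0682) and white knock-down replicate 3 (0.80, adjusted p = 0.176). Spp lost its call without HP1 knock-down replicate 2 (0.80, adjusted p = 0.279), white knock-down replicate 2 (0.89, adjusted p = 0.15) and white knock-down replicate 3 (0.75, adjusted p = 0.21). Of the 41 probes of the 38 nearest measured genes around all members, 3 were called higher and 1 lower in this contrast, where 7.43% and 0.443% of all probes were, so the share called higher was near that of the whole array.

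**Figure D3:**
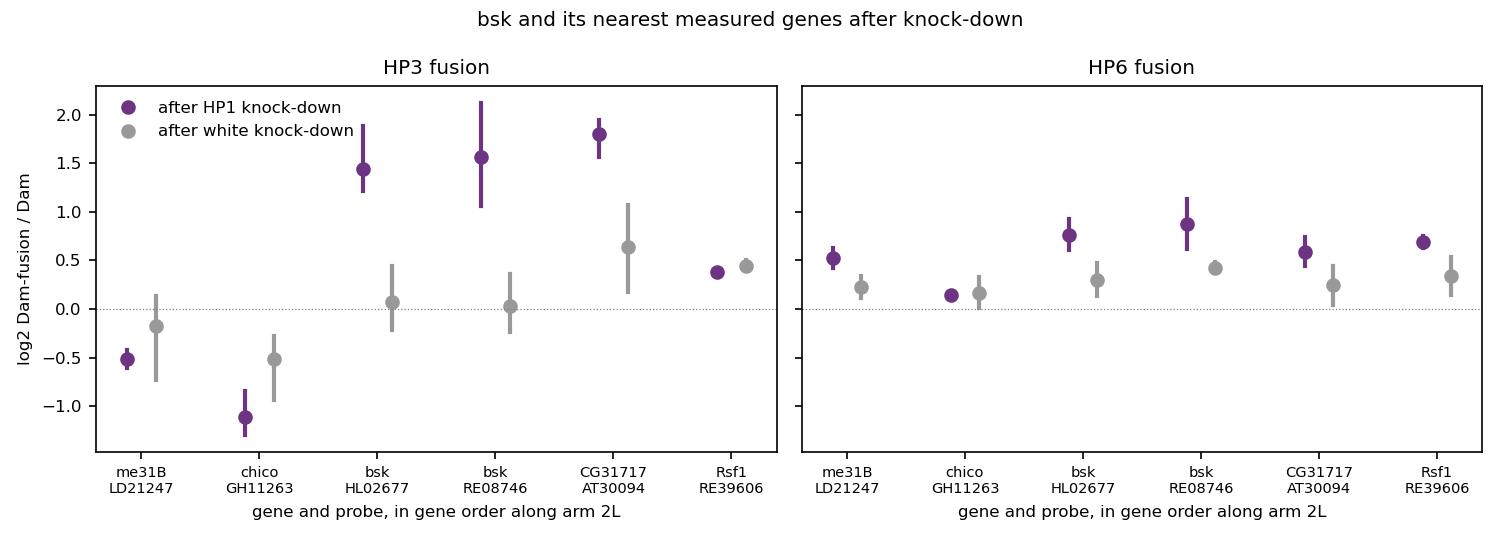
Mean log2 ratio of HP3 and HP6 at bsk and its nearest measured genes, in gene order, after HP1 knock-down and after white knock-down, with bars from the lowest to the highest array. The HP3 arrays of the 2 conditions are apart at both bsk probes and at CG31717.

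Around Ets21C 2 of the 4 nearest measured genes were called above 0 for Jra, where 10.8% of all probes were. Of the 41 probes around all members, 4 were called above 0 for Jra and 6 below, where 10.8% and 6.3% of all probes were. nAChRbeta3, the adjoining gene, was at 0.91 for Jra (limma adjusted p = 8.83e-05), and cbt, a transcription factor gene 5 genes away on the other side, was at 1.12 (adjusted p = 0.00714). The cbt value lost its call without Jra replicate 1 (1.00, adjusted p = 0.0852) or replicate 2 (1.08, adjusted p = 0.0678). Spp, which lies between cbt and Ets21C, was at 0.12 for Jra (adjusted p = 0.751) and Tspo at 0.18 (adjusted p = 0.633). The cbt probe was low for Su(var)3-9 at -2.54 (adjusted p = 1.76e-07), HP4 at -1.38 (adjusted p = 7.78e-05) and HP5 at -1.45 (adjusted p = 5.84e-05). For HP3 cbt was called above 0, at 0.82 (adjusted p = 0.044), a call lost without any 1 of HP3 replicates 1, 3 and 4 (0.64 to 0.81, adjusted p between 0.156 and 0.231). Around puc none of the 4 nearest measured genes was called for Jra or below 0 for Su(var)3-9, HP4 or HP5. Of all probes, 17.4%, 21.8% and 18.7% were called below 0 for Su(var)3-9, HP4 and HP5. Beside bsk, chico was low for Su(var)3-9 (-1.18, adjusted p = 0.00907), HP4 (-1.14, adjusted p = 0.00293) and HP5 (-1.14, adjusted p = 0.00345). Each chico call was lost without 1 array, that for Su(var)3-9 without replicate 2 (-1.12, adjusted p = 0.0589), that for HP4 without replicate 1 (-0.83, adjusted p = 0.0505) and that for HP5 without replicate 1 (-0.86, adjusted p = 0.0626). Rsf1, also near bsk, went the other way and was called above 0 for Su(var)3-9 (0.59, adjusted p = 0.00765), HP4 (0.42, adjusted p = 0.0187) and HP5 (0.68, adjusted p = 0.000535). Of these Rsf1 calls, that for Su(var)3-9 was lost without replicate 1 (0.51, adjusted p = 0.0801) or 3 (0.54, adjusted p = 0.0684), and that for HP4 without replicate 1 (0.34, adjusted p = 0.109) or 3 (0.42, adjusted p = 0.0532).

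Of 24 further pathway genes in a wider list, 9 had a probe, and 3 of these 9 were called above 0 for Jra and none below, where 10.8% and 6.3% of all probes were. They were Traf4, an adaptor of the ligand's receptors, at 0.61 (limma adjusted p = 0.00127), kay, the Fos partner of Jun, at 0.67 (adjusted p = 0.0155), and Mkk4, the other JNK kinase, at 0.55 (adjusted p = 0.0245). Of these only Traf4 kept its call with each Jra array left out. The kay call was lost without replicate 2 (0.64, adjusted p = 0.108) or replicate 3 (0.56, adjusted p = 0.125), and that of Mkk4 without replicate 1 (0.57, adjusted p = 0.104) or replicate 3 (0.37, adjusted p = 0.256). The median of the 10 probes of these genes was 0.06 for Jra, against -0.01 over all probes. Among 10 genes of other MAP kinase pathways, 4 had a probe and 1 was called above 0 for Jra (10.8% of all probes), p38a at 0.84 (adjusted p = 0.0372), lost without any 1 Jra array (0.53 to 1.01, adjusted p = 0.0716 to 0.337).

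In the contrast of the heterochromatin proteins with Jra, 4 of the 9 were lower and 1 higher, where 19.1% and 16.9% of all probes were. The lower ones were kay at -0.92 (limma adjusted p = 0.000837), Traf4 at -0.88 (adjusted p = 1.2e-05), Tab2, a partner of the kinase Tak1, at -0.76 (adjusted p = 0.0205), and Mkk4 at -0.49 (adjusted p = 0.035). The higher one was Cka, a scaffold for kinases of the pathway, at 0.67 (adjusted p = 0.0135). Tab2 lost its call without Jra replicate 1 (-0.79, adjusted p = 0.0652) or 2 (-0.55, adjusted p = 0.192), Mkk4 without replicate 1 (-0.51, adjusted p = 0.1) or 3 (-0.32, adjusted p = 0.283), and Cka without replicate 1 (0.59, adjusted p = 0.0919) or 2 (0.64, adjusted p = 0.0706). Cka resembled slpr in being high for HP1 at 0.76 (adjusted p = 0.00175) and for HP4 at 1.10 (adjusted p = 9.55e-06), both of which held with each array left out. For HP6 Cka was at 0.86 (adjusted p = 0.00319), but at 0.63 (adjusted p = 0.104) without the 2 doubted arrays. In the HP3 and HP6 knock-down contrasts none of the 9 genes was called.

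For the 3 proteins that were low at puc, Ets21C, Gadd45 and bsk, the further genes were called in both directions. Su(var)3-9 had 1 of the 9 genes above 0 and 1 below, HP4 had 3 and 3, and HP5 had 2 and 2, where 15.8% and 17.4%, 19.7% and 21.8%, and 18.4% and 18.7% of all probes were. The median fitted value of their 10 probes was -0.16 for Su(var)3-9, 0.10 for HP4 and -0.16 for HP5.

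Above 0, the receptor gene grnd was at 0.64 for Su(var)3-9 (limma adjusted p = 0.0256), 0.51 for HP4 (adjusted p = 0.0338) and 0.96 for HP5 (adjusted p = 0.000268). Its Su(var)3-9 call was lost without any 1 array (0.62 to 0.67, adjusted p = 0.0793 to 0.116), and its HP4 call without replicate 1 (0.21, adjusted p = 0.408) or 3 (0.52, adjusted p = 0.0692), while its HP5 value was 0.64 (adjusted p = 0.017) without HP5 replicate 1. Cka was at 0.51 for HP5 (adjusted p = 0.0195), and at 0.34 (adjusted p = 0.2) without HP5 replicate 1. The cytokine gene upd1 was at 0.47 for HP4 (adjusted p = 0.0441), and at 0.03 (adjusted p = 0.905) without HP4 replicate 2. So only the HP5 call of grnd and the HP4 call of Cka held with each array left out.

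Below 0, Tab2 was at -0.69 for HP4 (limma adjusted p = 0.00783) and -0.77 for HP5 (adjusted p = 0.0041), and its HP4 call was lost without replicate 2 (-0.54, adjusted p = 0.0751). The kay probe was at -0.59 for HP4 (adjusted p = 0.00536), lost without replicate 2 (-0.32, adjusted p = 0.136), and at -0.43 for HP5 (adjusted p = 0.0414), lost without any 1 array (-0.49 to -0.38, adjusted p = 0.0508 to 0.153). Traf4 was at -0.35 for Su(var)3-9 (adjusted p = 0.037), lost without any 1 array (-0.43 to -0.24, adjusted p = 0.0581 to 0.276), and at -0.37 for HP4 (adjusted p = 0.00935), lost without replicate 1 (-0.30, adjusted p = 0.0722) or 3 (-0.32, adjusted p = 0.0548). Only the HP5 call of Tab2 held throughout.

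Among the other MAP kinase genes, Dsor1, the ERK kinase gene, was at -0.58 for HP4 (limma adjusted p = 0.00592) and -0.50 for HP5 (adjusted p = 0.0186), and the phosphatase gene Mkp3 at -0.43 for HP4 (adjusted p = 0.0112) and at -0.53 and -0.42 for HP5 at its 2 probes (adjusted p = 0.0216 and 0.0155). Each of these calls was lost without HP4 replicate 2 (Dsor1 -0.38, adjusted p = 0.1, and Mkp3 -0.19, adjusted p = 0.244) or without HP5 replicate 2 (Dsor1 -0.40, adjusted p = 0.124, and Mkp3 -0.48 and -0.30, adjusted p = 0.0922 and 0.14). Without HP5 replicate 1, Dsor1 was at -0.48 (adjusted p = 0.0728) and Mkp3 RE08706 at -0.42 (adjusted p = 0.147). The p38a probe was above 0 for Su(var)3-9 at 1.13 (adjusted p = 0.00273), and at 0.28 (adjusted p = 0.35) without replicate 2.

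**Figure D4:**
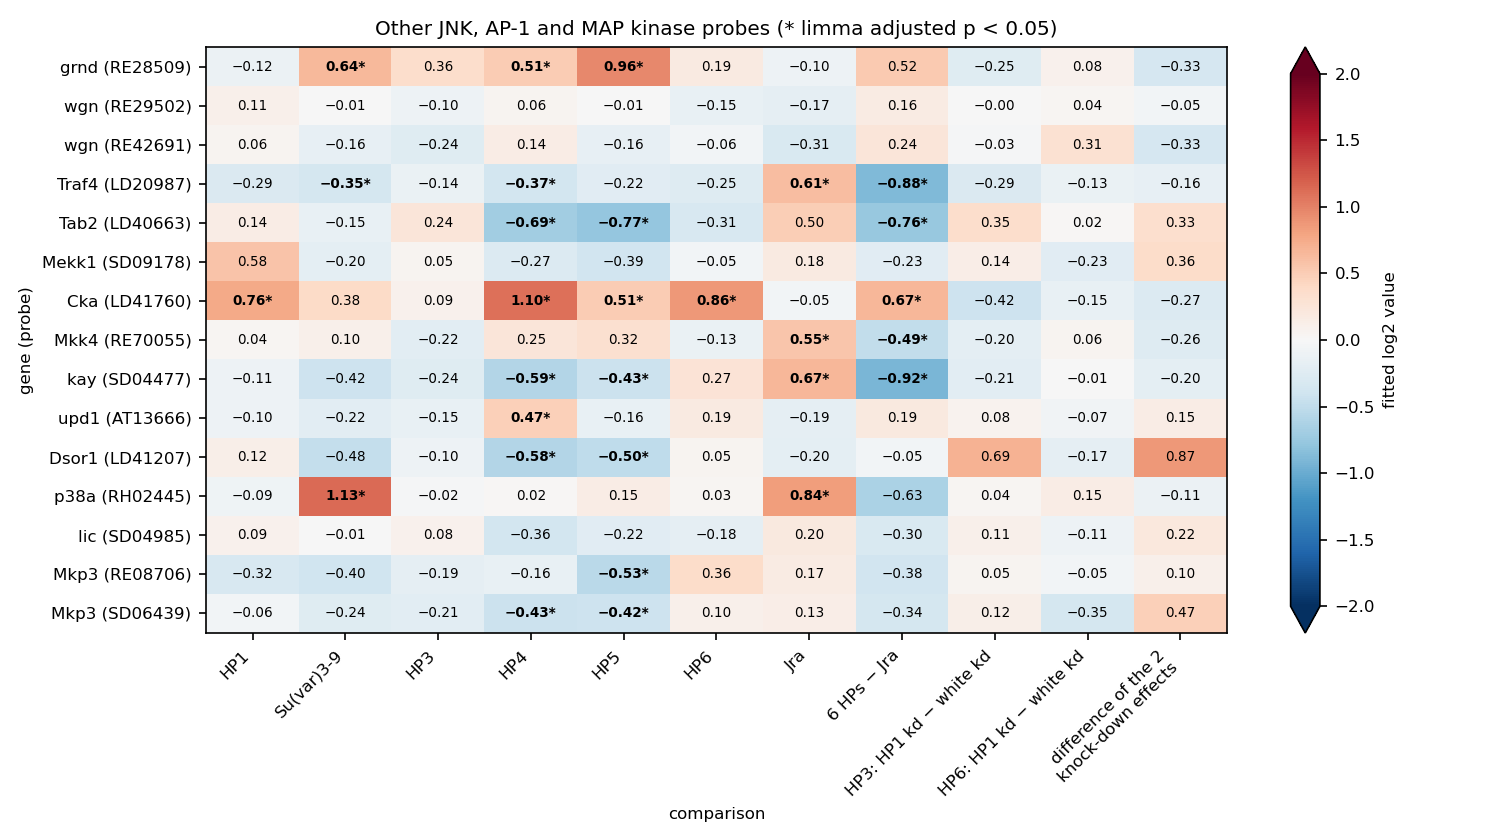
Fitted log2 ratio (colour) for the further JNK and AP-1 genes and the other MAP kinase genes with a probe (rows) in each comparison (columns), with called values marked. Traf4, kay and Mkk4 are high for Jra, as is p38a of the other MAP kinase genes, and Cka is high for HP1, HP4, HP5 and HP6.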

How the data were processed

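Per the labels, Dam-fusion and Dam-only DNA of Kc167 cells was hybridised together, with the fusion in Cy3 on 20 arrays and in Cy5 on 15. The deposited values are log ratios of fusion over Dam, taken here as log2, and the authors had centred them, since the 35 column medians lay between -0.00017 and 0.00027. No source used here names the scanner, the background correction, the normalisation or a genome build. Of the values 434 were missing.

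Each array was centred on its median, and a limma 3.58.1 model (R 4.3.3) held 1 mean for each of the 11 groups and a term for the dye, over all 35 arrays (23 residual degrees of freedom, prior 6.91). A probe was tested if every group had 2 or more arrays with a value, as 9934 of 9993 had. The dye term was called for 65 probes. Tests were two-sided, with Benjamini-Hochberg adjustment over all probes, with a threshold of 0.05, in 11 comparisons. Errors are SE of the model or SD between arrays, as written. Tables and figures used Python 3.11.15, pandas 2.3.3, numpy 2.4.6 and matplotlib 3.10.9.

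The members and lists were chosen with earlier results of these data known. Every member probe is described. Of the wider lists, up to 5 called genes a comparison and direction are named, of the neighbours the 2 nearest measured genes on each side, and of the like profiles the 3 with the highest correlation. Gene names are those supplied with the array, and all 10 members were matched to RefSeq. The model was tested on simulated data in which 200 of 9993 probes were changed by 1 or 2, up or down. For Jra against 0, 72.7% of changes of size 1 and 99.0% of size 2 were called in the right direction. For the HP3 knock-down contrast these shares were 44.9% and 94.0%. A member probe that was not called is therefore not shown to be unchanged. The alternatives were no dye term, no further centring, arrays scaled to the same spread, only the arrays compared, probes without missing values, the replicate number as a block, no doubted arrays, each array left out, and probes of a gene averaged.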

Additional observations from a re-analysis of the deposited data

Results flagged for a closer look

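In 3 of the 52 sets of 4 arrays at a member probe, 1 array stood apart from the other 3, with a gap to its nearest neighbour of more than 0.829 of the range of the set. Chance sets 1 array apart by this measure in about 1 of 20 sets. The Jra gene read -3.41 on the array labelled HP4 replicate 2, while the other HP4 arrays lay between -0.16 and 0.00. The LD46661 probe of hep read 0.56 on HP1 replicate 3, while the other HP1 arrays lay between -0.22 and -0.20. The RE08746 probe of bsk read -0.73 on HP3 replicate 1, while the others lay between -0.14 and -0.06, with the doubted HP3 replicate 2 among them.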

How the results depend on the processing

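The 34 called values of member probes were refitted 536 times, of which 503 kept the direction and the call, 33 lost the call and 0 changed direction. Of the 34 values, 17 lost the call under at least 1 alternative. With the replicate number as a block (replicate block), all 34 stayed called, so that the counts were 1 for HP1, 6 for Su(var)3-9, 10 for HP4, 6 for HP5, 2 for Jra, 7 for the contrast with Jra and 2 for the HP3 knock-down. Of all probes, 11.6%, 28.9%, 41.1%, 37.0%, 17.1%, 37.1% and 7.86% were then called, in the same order. The labels do not say that the numbers pair, and the knock-down arrays were compared without pairing. Deviations from the group mean correlated at the same number at 0.102, 0.0729 and 0.242 for HP3 and at 0.16 for HP6. At different numbers they correlated between -0.21 and 0.0853 for HP3 and at -0.16 for HP6. These signs are tied, since deviations sum to 0 within a group. Knock-down arrays of the same number also carried the fusion in the same dye, and the dye was not removed from these deviations. Whether the numbers pair is not known. Member probes called for HP3 were 3 with arrays scaled to the same spread and 1 without the doubted arrays, in place of 0. Of all probes, 20.7% and 9.1% were called for HP3 in these models. With only the arrays compared in the model, they were 2 in place of 10 for HP4, 1 in place of 0 for HP6 and 5 in place of 2 for Jra, where 7.08%, 16.5% and 44.8% of all probes were called. With probes of a gene averaged, the HP3 knock-down called 1 gene, bsk, in place of its 2 probes, where the share called overall was 8.44%. Leaving out 1 array at a time gave 0 to 1 calls for HP1, 5 to 6 for Su(var)3-9, 0 to 1 for HP3, 7 to 10 for HP4, 5 to 6 for HP5, 0 to 1 for HP6, 2 for Jra, 4 to 8 for the contrast with Jra, 1 to 2 for the HP3 knock-down, and 0 for the HP6 knock-down and for the difference between the knock-down effects. With 1 array left out, the share of all probes called was 7.27% to 13.9% for HP1, 18.0% to 22.8% for Su(var)3-9 and 3.0% to 7.7% for HP3. It was 31.5% to 41.8% for HP4, 22.3% to 34.4% for HP5, 5.31% to 9.14% for HP6 and 6.83% to 14.1% for Jra. For the contrast with Jra it was 21.9% to 41.7%, and for the HP3 knock-down 1.84% to 8.12%. For the HP6 knock-down it was 0.0302% to 0.312%, and for the difference 0.0% to 0.201%. Some of the alternative models held fewer arrays, and the cause of the changes was not tested. Signal over background is unknown here, since intensities were not analysed.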
